A study of Mus musculus with 12 samples.

Results

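Collagen chains were taken as every gene of the count table whose mouse symbol has the form Col, a number, the letter a and a number, which gave 31 of the 15113 listed genes. Of these, 10 are fibrillar chains, 4 belong to basement membranes and 17 fall in other collagen types. The cells were C2C12, mouse myoblasts in permanent culture that stop dividing and fuse to multinucleate myotubes in low serum. Differentiated myotubes received 20 μM BAM15, dissolved in DMSO, or vehicle (0 μM BAM15) over 16 h. BAM15 is a small molecule that carries protons across the inner mitochondrial membrane and so uncouples respiration. RNA from 6 libraries per condition was counted by 3′ sequencing, with 13983725 to 18866728 reads per library assigned to genes. Both conditions share the line, which derives from a single clone, and the labels do not say whether libraries of a condition came from separate cultures, so that p-values measure only the spread between these libraries, which may be technical.

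Collagens are secreted proteins in which 3 chains wind into a helix. Fibrillar collagens, such as types I, III, V and XI, pack into the cross-linked fibrils that bear tension around muscle fibers, whereas type IV forms the sheet-like network of the basement membrane that covers each fiber. Types XXIV and XXVII are also classed as fibrillar here. Type VI assembles into beaded filaments that link the basement membrane to the surrounding matrix, type VIII forms short-chain networks, and transmembrane collagens such as types XIII, XXIII and XXV stay anchored in the plasma membrane. Chains of one molecule are often encoded by separate genes, as Col1a1 and Col1a2 are for type I collagen.

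Most collagen chains were expressed at a lower level with BAM15, and the largest fold changes lay outside the fibrillar class. Reads were counted per gene and scaled to a common library size with TMM factors (normalized counts). Because a read comes from the 3′ end of a transcript, a count does not grow with transcript length. Levels of different genes may be set side by side only roughly, since the annotation of the 3′ ends used for counting is not given. A low-count filter left 25 of the 31 chains for the edgeR quasi-likelihood test, whose p-values were adjusted over 12730 genes with the Benjamini-Hochberg method. At an adjusted p below 0.01, 15 of the 25 chains fell, 2 rose and 8 did not pass; of all genes tested, 20.3% fell and 22% rose by this rule. The median log2 fold change was −0.55 over the 25 chains and 0.02 over all tested genes. With the study's thresholds, which also ask for a mean above 50 normalized counts and a change above 2-fold, 3 chains fell (Col8a1, Col6a3 and Col23a1) and 0 rose, against 3.58% and 3.7% of all genes. In 13 of the 25 chains every BAM15 library lay below every vehicle library, and in 0 chains above, where 17% and 17.1% of all genes did so.

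Of the 8 tested fibrillar chains, 3 fell and 1 rose, with a median log2 fold change of −0.28. Of the 4 basement membrane chains, 3 fell and 0 rose, with a median of −0.36. Of the 13 tested chains of other types, 9 fell and 1 rose, with a median of −0.64, and all 3 chains past the study's thresholds were among them.

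**Figure D1:**
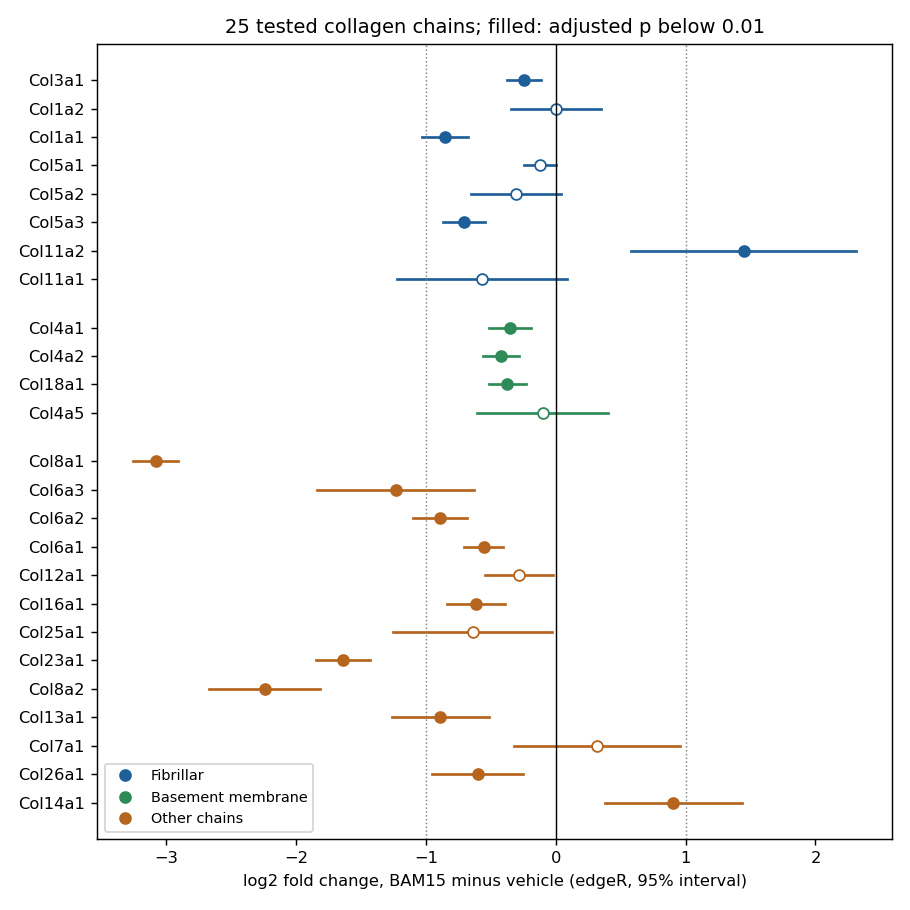
The log2 fold change (BAM15 minus vehicle) of each tested collagen chain, with its 95% interval from the edgeR fit, for fibrillar, basement membrane and other chains, ordered by mean level within a class; filled circles mark an adjusted p below 0.01 and dotted lines a 2-fold change. Col8a1 lies farthest to the left at −3.08, and Col11a2 and Col14a1 are the filled circles to the right of 0.

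Summed over chains, collagen reads made up 0.296% to 0.362% of a vehicle library and 0.206% to 0.301% of a BAM15 library. The sum was 49595 to 59901 normalized counts with vehicle and 36997 to 49587 with BAM15. The sum for fibrillar chains ran from 39211 to 47040.3 with vehicle and from 30821 to 43567 with BAM15, so the groups overlapped. The basement membrane sum was 4357 to 5390 with vehicle and 3598 to 4222 with BAM15, and the sum of the other chains was 5895 to 7524 with vehicle and 1954 to 2489.7 with BAM15, both without overlap. Col1a1 accounted for 25.3% of the net fall in mean summed counts, Col8a1 for 22.9% and Col3a1 for 18.9%. Without Col8a1 the sum of the other chains was still 2817 to 4035 with vehicle and 1604 to 2088 with BAM15. In bulk RNA, fewer cells of a type and less RNA per cell cannot be told apart.

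BAM15 libraries 4 to 6 stood apart from BAM15 libraries 1 to 3: 38.8% of all tested genes differed between these sets at an adjusted p below 0.05 (edgeR). No label names a batch, and the split was known from earlier results of these data. Among the collagen chains 7 of 25 (28%) differed between these BAM15 sets. No tested chain differed between vehicle libraries 4 to 6 and 1 to 3 (edgeR, lowest adjusted p 0.841). The fold change within each set (BAM15 against vehicle libraries of the same numbers) is given beside the chains that the split touches. Library numbers gave no clear pairing of the libraries, which so few libraries cannot exclude, so this matching by number is a choice. All 15 chains that fell had a negative log2 fold change within both sets. They were picked on these same libraries, so this is no independent check. With each set filtered and fitted alone (edgeR), 17 of 27 tested chains were lower at an adjusted p below 0.01 in libraries 1 to 3. In libraries 4 to 6 these were 12 of 26. The share of all genes at this rule within a set is not given, so these counts have no background.

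Col8a1, a chain of the short-chain type VIII collagen found in vessel walls and in remodeling tissue, had the largest fold change. Its level with vehicle was 2990.1 at the lowest, 3143 at the median and 3489 at the highest, and with BAM15 it was 326, 376 and 442. The groups lay far apart, and the level with BAM15 was 8.47-fold lower (log2 −3.08, SE 0.08, edgeR adjusted p = 2.72e-13). The gene ranked 932nd of the 15113 genes by mean level with vehicle and 6005th with BAM15. The log2 fold change was −3.18 in libraries 1 to 3 and −2.99 in libraries 4 to 6. Col8a1 is among the 30 genes that the study picked from these libraries for its heat map, so its call is no independent evidence.

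Col8a2 encodes the partner chain of type VIII collagen and was much less abundant, at 42.3, 60.6 and 69.3 normalized counts with vehicle (lowest, median and highest). With BAM15 it was at 7.003, 12.5 and 17.1, without overlap. It fell by 2.24 on the log2 scale (SE 0.20, edgeR adjusted p = 2.15e-07), and its mean of 35.8 kept it below the study's minimum of 50. Within a library, the ratio of Col8a2 to Col8a1 counts had a median of 0.0198 with vehicle (range 0.0137 to 0.0203) and of 0.0346 with BAM15 (range 0.0189 to 0.0476). The 2 groups of ratios overlapped, and the log2 ratio was 0.83 higher with BAM15 (exact permutation test, two-sided, adjusted p = 0.0195 over 9 ratios).

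The promoter windows of both type VIII genes are shown because these chains had the 2 largest falls of the class. They hold 300 bases around the annotated gene start, 5′ to 3′ on the gene's strand, from RefSeq on GRCm38.p6; the Col8a1 window is chr16:57754688-57754987 (minus strand) and the Col8a2 window chr4:126286544-126286843 (plus strand). Capitals mark the TATA box (TATAAA), the CCAAT box (CCAAT), the GC box (GGGCGG) and the SMAD element (CAGAC) on either strand.
Col8a1: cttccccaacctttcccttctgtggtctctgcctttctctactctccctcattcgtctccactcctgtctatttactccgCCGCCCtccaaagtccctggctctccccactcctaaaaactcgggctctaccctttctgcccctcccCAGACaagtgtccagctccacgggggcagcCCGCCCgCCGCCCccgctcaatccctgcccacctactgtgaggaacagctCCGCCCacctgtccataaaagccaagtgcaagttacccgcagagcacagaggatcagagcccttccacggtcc
Col8a2: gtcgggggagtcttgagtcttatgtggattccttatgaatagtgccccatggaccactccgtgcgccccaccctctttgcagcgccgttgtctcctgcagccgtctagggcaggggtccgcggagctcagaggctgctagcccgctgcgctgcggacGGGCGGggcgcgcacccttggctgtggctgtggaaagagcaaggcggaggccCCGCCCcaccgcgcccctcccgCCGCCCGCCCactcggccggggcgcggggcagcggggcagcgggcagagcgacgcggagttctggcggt
The Col8a1 window held 4 GC boxes and 1 CAGAC, and the Col8a2 window held 4 GC boxes, of which 1 pair overlapped by 2 bases. At least 4 GC boxes were found in 5.49% of the 32851 RefSeq promoter windows of mouse genes of this length. Such matches describe letters only and say nothing of a factor's binding.

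Windows were found for 25 of the 31 chains, 27 windows in all. GC boxes stood in 18 of the 27 collagen windows and in 35.7% of all windows, CCAAT in 11 and in 37.4%, CAGAC in 13 and in 49.6%, and TATAAA in 5 and in 13.6%.

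Type VI collagen has 3 main chains, and all 3 fell. Col6a3, the longest chain, was at 789, 1119 and 1793 normalized counts with vehicle (lowest, median, highest) and at 246, 499.5 and 777 with BAM15. The groups did not overlap, although the highest BAM15 and the lowest vehicle value were close, and the log2 fold change was −1.23 (SE 0.28, edgeR adjusted p = 2.29e-03). Against a 2-fold change (glmTreat) Col6a3 did not pass, which left Col8a1 and Col23a1. Col6a3 was at 246 to 401 in BAM15 libraries 1 to 3 and at 598 to 777 in libraries 4 to 6, and its log2 fold change was −1.52 in the first set and −1.06 in the second. The difference between these 2 changes was not past the threshold (adjusted p = 0.424).

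Col6a2 was at 414, 478 and 509 normalized counts with vehicle and at 198, 261 and 289.5 with BAM15 (log2 fold change −0.89, SE 0.097, edgeR adjusted p = 1.76e-06). Col6a1 was at 358, 372 and 407 with vehicle and at 244, 249 and 294 with BAM15 (log2 fold change −0.55, SE 0.070, edgeR adjusted p = 8.45e-06). Neither chain overlapped between the groups. Within the sets Col6a2 had a log2 fold change of −0.69 in libraries 1 to 3 and −1.12 in libraries 4 to 6, and the test of that difference did not pass (edgeR adjusted p = 0.0925). With vehicle a library held a median of 1.25 counts of Col6a2 per count of Col6a1 (range 1.12 to 1.37), and with BAM15 0.993 (range 0.814 to 1.14). The log2 ratio fell by 0.35 (exact permutation test, two-sided, adjusted p = 9.74e-03). The ratio of Col6a3 to Col6a1 had a median of 3.01 with vehicle and 2.01 with BAM15, and the difference of −0.73 on the log2 scale did not pass (exact permutation test, adjusted p = 0.0714), although it passed without BAM15 library 6 (adjusted p = 0.0227) or without vehicle library 2 (adjusted p = 0.0487). The Col6a1 and Col6a2 genes lie on the same strand of chromosome 10, 85161 bases apart with 1 annotated gene between them.

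Of the transmembrane collagens, Col23a1 had the largest change. It was at 183, 201 and 229.8 normalized counts with vehicle and at 54.9, 66.9 and 73.5 with BAM15, a 3.12-fold lower level (log2 −1.64, SE 0.097, edgeR adjusted p = 2.02e-09). The log2 fold change was −1.62 in libraries 1 to 3 and −1.66 in libraries 4 to 6. Col13a1, which is known from the neuromuscular junction, was at 34.6, 44.5 and 49.99 with vehicle and at 17.5, 21.4 and 32.9 with BAM15, and fell by 0.89 on the log2 scale (SE 0.17, edgeR adjusted p = 5.30e-04). In libraries 4 to 6 alone its adjusted p was 0.0693.

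Col25a1 encodes a transmembrane collagen that developing muscle needs for motor innervation, and its BAM15 libraries split. It was at 184, 212 and 300.1 normalized counts with vehicle. With BAM15 it was at 79.6 to 85.3 in libraries 1 to 3, below every vehicle library, and at 149.5 to 245 in libraries 4 to 6, of which 1 lay below and 2 within the vehicle range. Over all libraries the log2 fold change was −0.64 (SE 0.28) and did not pass (edgeR adjusted p = 0.0734). The change was −1.30 in libraries 1 to 3 and −0.25 in libraries 4 to 6, and the test of the difference gave an adjusted p of 0.0473 (edgeR interaction), which 2.66% of all genes also reached at 0.05. Col25a1 was the only 1 of the 25 tested chains past this test. Col5a2 had an adjusted p of 0.0727 here and passed when libraries were scaled by their totals only or tested with DESeq2.

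**Figure D2:**
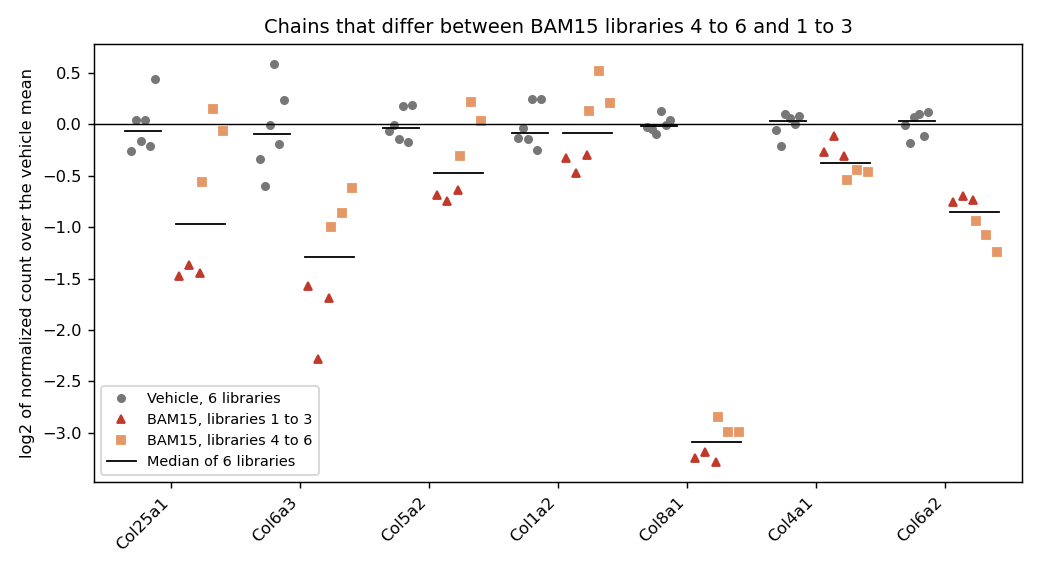
The log2 of each library's normalized count over the mean of the 6 vehicle libraries for the 7 chains that differed between BAM15 libraries 4 to 6 and 1 to 3 (edgeR adjusted p below 0.05); points are libraries and lines medians of 6. Col25a1, Col6a3, Col5a2, Col1a2 and Col8a1 were higher in libraries 4 to 6, and Col4a1 and Col6a2 were lower.

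Of the collagens that decorate the surface of fibrils, Col16a1 fell, Col12a1 did not pass and Col14a1 rose at a low level. Col16a1 was at 292, 334 and 400.01 normalized counts with vehicle and at 176, 226 and 264 with BAM15 (log2 fold change −0.61, SE 0.10, edgeR adjusted p = 1.39e-04). Col12a1 was at 247, 310.0 and 399 with vehicle and at 238, 260.1 and 284 with BAM15, with overlapping groups and a log2 fold change of −0.28 (SE 0.12, edgeR adjusted p = 0.0639, 95% interval −0.54 to −0.02 before adjustment). Col14a1, at 6.19, 10.4 and 18.2 with vehicle and 14.04, 21.5 and 24.4 with BAM15, had a log2 fold change of 0.90 (SE 0.25, edgeR adjusted p = 6.22e-03). Its groups overlapped, and its adjusted p was 0.0123 to 0.0159 without BAM15 library 1, 3 or 6 or vehicle library 1, 2, 4, 5 or 6.

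The remaining chains of this class were scarce. Col26a1, a small collagen of reproductive tissue, was at 22.3, 24.3 and 28.7 normalized counts with vehicle and 12.8, 17.2 and 19.4 with BAM15, a fall of 0.60 on the log2 scale (SE 0.17, edgeR adjusted p = 6.35e-03). Its adjusted p was 0.0105 to 0.0175 without BAM15 library 2, 4, 5 or 6 or vehicle library 1, 3 or 5. Col7a1, of the anchoring fibrils of skin, was at 15.4 to 39.4 with vehicle and 19.4 to 43.2 with BAM15, and the difference did not pass (log2 fold change 0.32, SE 0.30, edgeR adjusted p = 0.391).

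**Figure D3:**
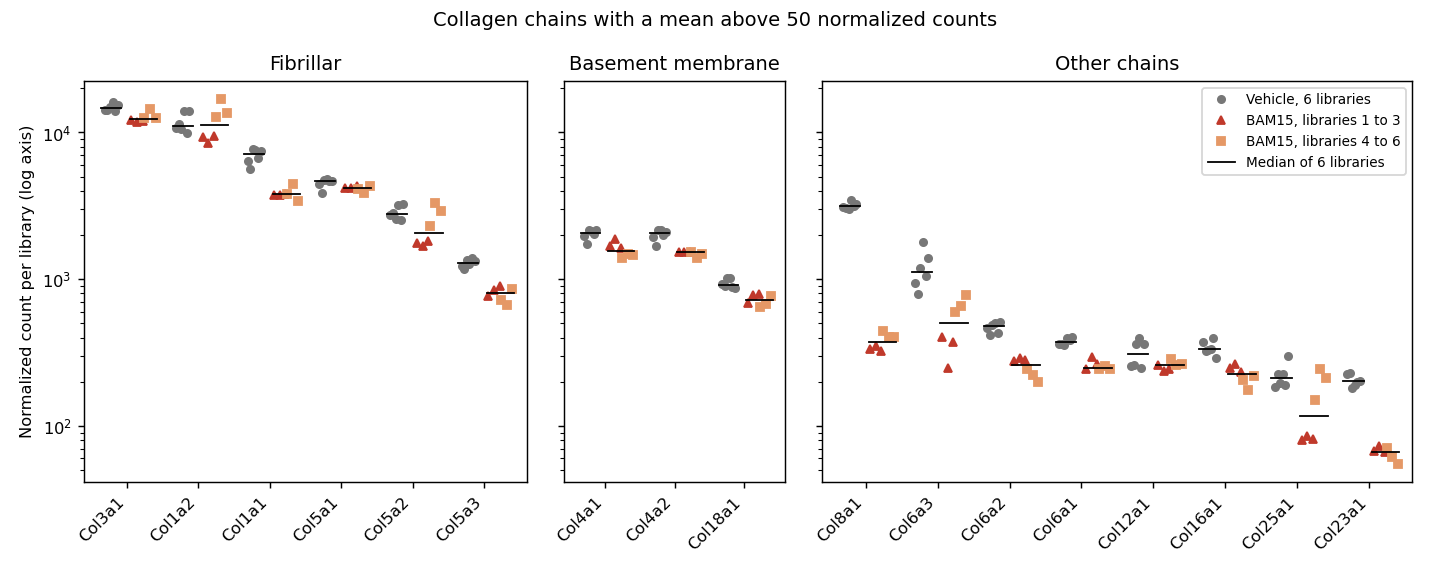
Normalized counts (log axis) of the 17 chains with a mean above 50, in each of 6 vehicle libraries (circles), BAM15 libraries 1 to 3 (triangles) and BAM15 libraries 4 to 6 (squares), by class, with lines at the median of 6 libraries. The gap between the groups is widest for Col8a1 (vehicle 2990.1 to 3489, BAM15 326 to 442), while for Col1a2 BAM15 libraries 1 to 3 lie below every vehicle library and libraries 4 to 6 overlap them.

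Among fibrillar chains, Col3a1, Col1a2 and Col1a1 carried most collagen reads, and only Col1a1 of these 3 fell without overlap. Col1a1, which gives type I collagen 2 of its 3 chains, was at 5629, 7111 and 7742 normalized counts with vehicle and at 3412, 3780.0 and 4442 with BAM15. Its mean level with BAM15 was 55.3% of vehicle in the fit (log2 fold change −0.86, SE 0.083, edgeR adjusted p = 5.29e-07), −0.80 in libraries 1 to 3 and −0.90 in libraries 4 to 6. Its share of all collagen reads was 12.9% with vehicle and 9.22% with BAM15.

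Col1a2, the partner chain of type I collagen, did not pass over the 12 libraries. It was at 9901, 11068 and 13959 normalized counts with vehicle and at 8487, 11188 and 16844 with BAM15, and the log2 fold change was 0.00 (SE 0.16, edgeR adjusted p = 0.992, 95% interval −0.34 to 0.35). The BAM15 sets did not overlap each other, at 8487 to 9529 in libraries 1 to 3 and 12847 to 16844 in libraries 4 to 6, a difference of 0.66 on the log2 scale (edgeR adjusted p = 1.61e-03). Against vehicle libraries of the same numbers the log2 fold change was −0.26 in the first set and 0.20 in the second, and the test of that difference did not pass (adjusted p = 0.135). Fitted alone, libraries 1 to 3 passed (edgeR adjusted p = 8.33e-04) and libraries 4 to 6 did not (adjusted p = 0.33). Its direction over all libraries changed with the scaling and is therefore not given.

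The ratio of the 2 type I chains moved further than the spread between libraries. A vehicle library held a median of 1.75 counts of Col1a2 per count of Col1a1 (range 1.37 to 2.03), and a BAM15 library held 2.91 (range 2.26 to 3.98). The log2 ratio was 0.82 higher with BAM15 without overlap (exact permutation test, two-sided, p = 2.16e-03, the smallest that 924 arrangements can give, adjusted p = 6.49e-03), 0.53 higher in libraries 1 to 3 and 1.11 higher in libraries 4 to 6. A ratio within a library does not depend on scaling and shows an unequal change, without telling which gene moved. The ratios of Col3a1 and Col5a1 to Col1a1 given below share the Col1a1 counts, so they are not independent of this ratio or of the Col1a1 fall.

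Col3a1, the homotrimeric type III chain that co-assembles with type I, was the most abundant collagen in both conditions, with 27.7% of collagen reads with vehicle and 30.3% with BAM15. It was at 13988, 14659 and 16209.8 normalized counts with vehicle and at 11844, 12302 and 14402 with BAM15. It fell by 0.24 on the log2 scale (SE 0.060, edgeR adjusted p = 3.11e-03), with 5 of 6 BAM15 libraries below every vehicle library and overlap through BAM15 library 5. In libraries 4 to 6 alone the adjusted p was 0.0522. Its log2 ratio to Col1a1 was 0.61 higher with BAM15, without overlap (exact permutation test, two-sided, adjusted p = 6.49e-03).

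Type V collagen sits in the core of type I fibrils, and of its 3 chains only Col5a3 passed. Col5a3, the scarcest, was at 1167, 1299 and 1387 normalized counts with vehicle and at 662, 809 and 895 with BAM15, and fell by 0.70 on the log2 scale (SE 0.076, edgeR adjusted p = 1.69e-06). Col5a1 was at 3886, 4644 and 4793 with vehicle and at 3865, 4172 and 4326 with BAM15, with a log2 fold change of −0.12 (SE 0.057, edgeR adjusted p = 0.0917). Col5a2 was at 2519, 2777 and 3230.4 with vehicle and at 1694, 2064 and 3315 with BAM15, with a log2 fold change of −0.31 (SE 0.16, edgeR adjusted p = 0.122). Neither Col5a1 nor Col5a2 passed over 12 libraries. The BAM15 sets of Col5a2 stood apart, at 1694 to 1831 in libraries 1 to 3 and 2296 to 3315 in libraries 4 to 6. Its log2 fold change was −0.62 in the first set and −0.07 in the second. Fitted alone, the first set passed (edgeR adjusted p = 3.96e-08) and the second did not (adjusted p = 0.66).

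The log2 ratio of Col5a1 to Col1a1 was 0.73 higher with BAM15, without overlap (exact permutation test, two-sided, adjusted p = 6.49e-03), whereas that of Col5a2 to Col5a1 differed by −0.23 and did not pass (adjusted p = 0.28, exact permutation test). The latter difference was −0.58 in libraries 1 to 3 and 0.11 in libraries 4 to 6, and it was −0.37 without BAM15 library 5. In vehicle libraries there were fewer counts of Col5a1 than of Col1a1 (median ratio 0.66), and in 5 of 6 BAM15 libraries there were more (median 1.11). Col5a2 and Col3a1 are neighbours on chromosome 1, on opposite strands with their 3′ ends 24614 bases apart and no annotated gene between them. Col5a2 was higher in BAM15 libraries 4 to 6 than in 1 to 3, by 0.69 on the log2 scale (edgeR adjusted p = 6.69e-04). For Col3a1 this difference was 0.14 and did not pass (edgeR adjusted p = 0.113), and its BAM15 library 5 lay apart from the others. A link between the 2 neighbours was not tested.

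**Figure D4:**
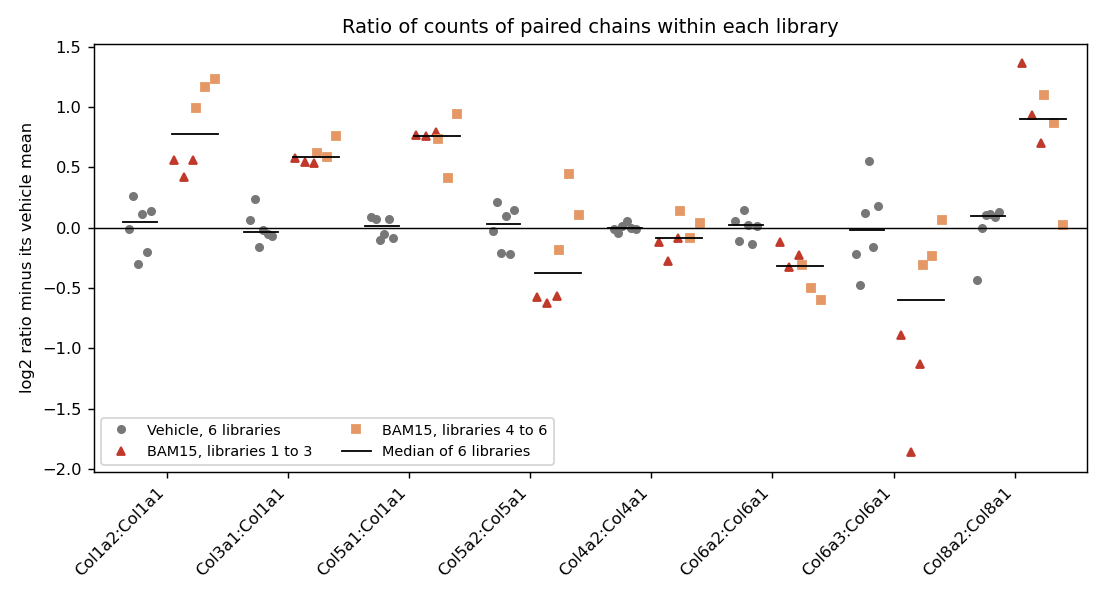
The log2 ratio of the counts of 2 chains within each library, minus its mean over the 6 vehicle libraries, for 8 pairs that share a molecule or a fibril; points are libraries and lines medians of 6. The 3 ratios to Col1a1, which share its counts and are not independent, lie above every vehicle library in every BAM15 library. For the ratio of Col4a2 to Col4a1 the groups overlap.

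The type XI chains, which form the core of cartilage fibrils and are also found at low levels in other tissues, were near the detection limit. Col11a2 was at 2.17, 8.11 and 14.97 normalized counts with vehicle and at 12.6, 22.01 and 36.7 with BAM15, and rose by a log2 fold change of 1.45 (SE 0.41, edgeR adjusted p = 7.14e-03) with overlapping groups. Its adjusted p was 0.0105 to 0.0203 without BAM15 library 3, 4 or 5 or vehicle library 3, 4 or 6. Col11a1 was at 9.69 to 21.02 with vehicle and 4.69 to 15.2 with BAM15, with a log2 fold change of −0.57 (SE 0.31, edgeR adjusted p = 0.133), and its log2 ratio to Col5a1 differed by −0.48 (exact permutation test, adjusted p = 0.212).

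Of the 4 basement membrane chains, 3 fell, each by less than 2-fold, and Col4a5 did not pass. Col4a1 and Col4a2 form the common type IV molecule, with 2 copies of the first and 1 of the second. Col4a1 was at 1751, 2077 and 2168 normalized counts with vehicle and at 1397, 1569 and 1871 with BAM15, and fell by 0.35 on the log2 scale (SE 0.076, edgeR adjusted p = 1.21e-03). Col4a2 was at 1678, 2060.1 and 2177 with vehicle and at 1398, 1529.5 and 1536 with BAM15, without overlap, and fell by 0.42 (SE 0.064, edgeR adjusted p = 5.54e-05). Col18a1, the source of endostatin, was at 876, 914 and 1022 with vehicle and at 648, 724 and 789.8 with BAM15, without overlap, and fell by 0.37 (SE 0.068, edgeR adjusted p = 2.87e-04). Within the sets, Col4a1 had a log2 fold change of −0.18 in libraries 1 to 3, where it did not pass on its own (adjusted p = 0.0484), and −0.53 in libraries 4 to 6. Col4a5, a chain of a rarer type IV molecule, was at 24.8 to 45.2 with vehicle and 11.7 to 35.7 with BAM15 and did not pass (log2 fold change −0.10, SE 0.24, edgeR adjusted p = 0.745).

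The type IV pair had the smallest difference of the 9 ratios. A vehicle library held 0.959 to 1.03 counts of Col4a2 per count of Col4a1, and a BAM15 library held 0.82 to 1.09. The difference of −0.06 on the log2 scale did not pass (exact permutation test, two-sided, adjusted p = 0.346), and it was −0.15 in libraries 1 to 3 and 0.02 in libraries 4 to 6. The 2 genes lie head to head on chromosome 8, and their annotated starts overlap by 22 bases in GENCODE M21 (GRCm38). Their RefSeq promoter windows are shown because the pair shares this stretch: chr8:11312777-11313076 on the minus strand for Col4a1 and chr8:11312555-11312854 on the plus strand for Col4a2, with the same motifs in capitals.
Col4a1: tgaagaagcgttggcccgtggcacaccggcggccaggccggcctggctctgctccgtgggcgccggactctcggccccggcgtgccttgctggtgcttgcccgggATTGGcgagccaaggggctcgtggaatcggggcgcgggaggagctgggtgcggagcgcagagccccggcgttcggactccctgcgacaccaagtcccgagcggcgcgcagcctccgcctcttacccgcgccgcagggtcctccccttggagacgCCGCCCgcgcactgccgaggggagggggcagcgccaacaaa
Col4a2: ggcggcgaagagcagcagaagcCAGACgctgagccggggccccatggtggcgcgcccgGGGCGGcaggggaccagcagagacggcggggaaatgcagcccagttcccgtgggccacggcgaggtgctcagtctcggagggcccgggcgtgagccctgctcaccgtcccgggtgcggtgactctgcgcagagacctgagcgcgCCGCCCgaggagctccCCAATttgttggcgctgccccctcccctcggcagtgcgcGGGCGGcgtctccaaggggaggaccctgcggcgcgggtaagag
The windows share 78 bases, chr8:11312777-11312854, which close each of them on opposite strands and hold 1 GC box. In all, the Col4a1 window held 1 CCAAT and 1 GC box, and the Col4a2 window held 1 CCAAT, 3 GC boxes and 1 CAGAC.

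The 6 chains left out by the low-count filter were Col27a1, Col24a1, Col22a1, Col19a1, Col10a1 and Col17a1. Their counts ran from 0 to 18 in a library, and no change was tested for them. In all 6 the normalized counts of the 2 groups overlapped. None of the 31 chains shares a stretch of 50 bases in its last 400 transcript bases with another gene, and of their 3′ ends only that of Col10a1 overlaps a gene on the other strand (Nt5dc1, 18 bases). The 13 other mouse chains of this naming pattern in GENCODE M21, among them Col2a1, Col15a1 and the type IX chains, were not analysed here.

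Genes that work on collagen were counted by the same rule. Of 22 tested genes of collagen making (among them hydroxylases, chaperones, export factors and Creb3l1), 7 fell and 4 rose at an adjusted p below 0.01, against 20.3% and 22% of all genes. The median log2 fold change of the list was 0.06. The 4 that rose were P3h1 (log2 fold change 0.38), Plod3 (0.26), Mia3 (0.27) and Sec31a (0.55). P4ha3, a subunit of prolyl 4-hydroxylase, was the only 1 past the study's thresholds (90.4, 129.97 and 146 normalized counts with vehicle, 17.3, 21.98 and 26.8 with BAM15, log2 fold change −2.53, SE 0.16, edgeR adjusted p = 3.31e-09). Creb3l1, a transcription factor that drives type I collagen expression in bone, was at 1293, 1335 and 1441 with vehicle and at 676, 782 and 1002 with BAM15, and fell by 0.76 (SE 0.082, edgeR adjusted p = 1.64e-06). It changed by less than 2-fold, and a part in the collagen changes was not tested.

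Of 22 tested genes that trim, cross-link or bind fibrils, 13 fell and 3 rose, with a median log2 fold change of −0.82, and 9 fell past the study's thresholds. These 9 were the enhancers of procollagen trimming Pcolce (−1.13) and Pcolce2 (−1.56), the cross-linking oxidases Lox (−1.12) and Loxl2 (−1.57), the small proteoglycan Ogn (−1.25) and the matricellular proteins Postn (−1.08), Thbs1 (−2.69), Thbs2 (−1.36) and Tnc (−2.30), given as log2 fold changes. Lox was at 6046, 6539 and 6767 normalized counts with vehicle and at 2846, 2952 and 3103 with BAM15 (SE 0.049, edgeR adjusted p = 7.29e-11). Fibronectin, Fn1, which cells lay down ahead of collagen, went the other way, from 12448, 18399 and 22165 with vehicle to 26281, 27674 and 31631 with BAM15 (log2 fold change 0.66, SE 0.11, edgeR adjusted p = 1.47e-04). Adamts2, which removes the N-propeptide of type I collagen, also rose (511, 559 and 598 with vehicle, 883, 915 and 995 with BAM15, log2 fold change 0.73, SE 0.057, edgeR adjusted p = 4.52e-08). The list counts here are to be read against the 20.3% and 22% of all genes that fell and rose. Creb3l1, Fn1 and Adamts2 were named after their values were seen.

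Of 19 tested partners in the basement membrane, 9 fell and 4 rose at an adjusted p below 0.01, against 20.3% and 22% of all genes. Their median log2 fold change was −0.35. Past the study's thresholds were the peroxidase Pxdn, which cross-links type IV collagen (log2 fold change −1.51), and Fras1 (−1.38) and Frem2 (−1.59), which form a complex in epithelial basement membranes, all lower, and the type IV binding glycoprotein Nid1, which was higher. Nid1 was at 622, 786 and 873 normalized counts with vehicle and at 1736, 2228 and 2483 with BAM15 (log2 fold change 1.47, SE 0.093, edgeR adjusted p = 4.53e-09). Pxdn was at 362, 432 and 535 with vehicle and at 102, 152 and 204 with BAM15 (SE 0.15, edgeR adjusted p = 4.94e-07).

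Of 11 tested genes on a list of receptors for collagen and its partners, 2 fell (Ddr1 and Dag1) and 2 rose (Ddr2 and Cd47), with a median log2 fold change of −0.17. At the same adjusted p below 0.01, 20.3% of all genes fell and 22% rose, so these counts do not set the list apart. Dag1, dystroglycan, is known as a receptor for laminins and agrin, and Cd47 binds thrombospondin, so that neither is a receptor for collagen itself. The discoidin domain receptors, tyrosine kinases that bind collagen directly, moved in opposite directions. Ddr2, which prefers fibrillar collagens, was at 1034, 1132 and 1183 normalized counts with vehicle and at 3414, 4458 and 4882 with BAM15 (log2 fold change 1.95, SE 0.085, edgeR adjusted p = 6.71e-11) and was the only gene of the list past the study's thresholds. Ddr1 was at 3068, 3293 and 3662 with vehicle and at 1711, 1896 and 2006 with BAM15 (log2 fold change −0.83, SE 0.056, edgeR adjusted p = 8.66e-09).

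Markers of the cells that the cultures could hold were followed beside the collagens. All 9 myotube markers were detected, with summed levels of 323944 to 353619 normalized counts with vehicle and 322527 to 415425 with BAM15. Acta1 had the largest part in these sums, with a mean of 127952 with vehicle and 175768 with BAM15. At an adjusted p below 0.01, Ckm (log2 fold change −0.17), Mymk (−0.27) and Mymx (−0.38) fell, and Myog (0.37) and Acta1 (0.46) rose. By this rule, which also holds for the marker lists below, 20.3% of all genes fell and 22% rose. All 4 cycling-cell markers fell past the study's thresholds: Mki67 (log2 fold change −1.80), Top2a (−1.46), Ccnb1 (−1.08) and Cdk1 (−1.43). Their sum was 4875 to 5663 with vehicle and 1844 to 2001 with BAM15, and their part in the fall of collagen chains was not tested. Of the 7 markers of undifferentiated myoblasts, 2 fell and 1 rose, with sums of 2850.1 to 3167 with vehicle and 2122 to 3301 with BAM15. The log2 fold change was −0.93 for Pax7 and −1.03 for Myod1, each without overlap. For Myf5 it was 1.69 (SE 0.35) with overlapping groups, at 95.6 to 201 normalized counts with vehicle and 188 to 845 with BAM15. Of 5 fibroblast markers 3 were listed (Pdgfra, Dpt and Pi16), their sum was 76.8 to 99.4 with vehicle and 70.0 to 97.2 with BAM15, and neither of the 2 tested passed. The endothelial markers Pecam1, Cdh5 and Kdr were not listed, and of the macrophage markers only Csf1r was, at sums of 1.81 to 16.2 with vehicle and 0.971 to 10.8 with BAM15. Of the osteoblast and chondrocyte markers, Runx2 rose (log2 fold change 0.83) and Sox9 fell by 0.62, and Bglap, which has near-identical gene copies and was too low to be tested, was at 0 to 4.52 normalized counts with vehicle and 4.70 to 15.5 with BAM15. Sp7, Alpl, Ibsp, Acan, Matn1, Comp and Cnmd were not listed.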

How the data were processed

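RNA of C2C12 myotubes was sequenced in 6 BAM15 and 6 vehicle libraries. The authors made QuantSeq 3′ libraries, aligned and counted forward reads with BlueBee software and deposited raw counts per Ensembl gene; aligner, annotation and strand are not given in the sources used here, and read length and passages differ between the methods and the labels. A normalized signal, which the authors deposited after scaling with DESeq2 1.22.2 (per the submitters' processing notes, which name GRCm38), served for 1 alternative. The 11 columns of other samples were not used. Counts were fitted in R 4.3.3 with edgeR 4.0.16 (filterByExpr, TMM factors 0.932 to 1.04, robust quasi-likelihood test, Benjamini-Hochberg over 12730 genes). Calls needed an adjusted p below 0.01, a mean above 50 normalized counts and a change above 2-fold. Chain ratios (counts plus 0.5) were compared by exact permutation in Python 3.11.15. Replicate libraries differed beyond sampling noise. The edgeR, interaction, DESeq2, limma-voom and permutation tests were tested on simulated data, and the test against a 2-fold change and the block were not. Chains with a mean above 50 or past the thresholds are named with full values, and list genes past the thresholds are named. Chains, lists and the split of library numbers were chosen with earlier results of these data known. Alternatives were other scalings, filters, tools (DESeq2 1.42.0, limma 3.58.1), thresholds, a block for library number, number sets and each library left out. Intervals cover the spread between libraries. Classes follow textbook types.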

Additional observations from a re-analysis of the deposited data

Results flagged for a closer look

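In 4 of the 52 groups of 6 libraries checked (17 chains and 9 ratios in 2 conditions), 1 library lay apart from the others by Dixon's criterion (gap over range above 0.625), where chance gives about 1 in 20. Vehicle library 6 had 300.1 normalized counts of Col25a1, with the next at 227. BAM15 library 5 had 14402 of Col3a1, with the next at 12651, and 1398 of Col4a2, with the next at 1496. In vehicle library 1 the log2 ratio of Col8a2 to Col8a1 was −6.19, with the next at −5.76. The change of Col25a1 differed between library numbers 4 to 6 and 1 to 3 by 1.06 on the log2 scale (edgeR interaction test, adjusted p = 0.0473).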

How the results depend on the processing

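The count of 3 chains lower past the 3 thresholds was 3 in most alternatives, was 2 against a 2-fold change (glmTreat), was 4 within library numbers 1 to 3 (with Col25a1) and within 4 to 6 (with Col6a2), was 1 with a log2 fold change above 2 (Col8a1), and was 15, with 2 higher, at an adjusted p below 0.05 only; leaving out each library in turn gave 3 throughout. At an adjusted p below 0.01 alone, 15 chains were lower, 14 to 15 with each library left out and 3 with glmTreat. This count was 17 within library numbers 1 to 3 (27 chains tested), 12 within 4 to 6 (26 chains tested) and 16 with a block for number sets. It was 14 with DESeq2 and with at least 10 counts in every library. The 2 higher chains (Col11a2 and Col14a1, both of low counts) became 0 with library size only, with at least 10 counts in every library, with glmTreat and within either number set, and 0 to 2 with each library left out. Col25a1 was the 1 chain whose change differed between number sets, and 2 did with library size only or DESeq2 (with Col5a2).

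Library numbers gave no clear pairing of the libraries: deviations of same-numbered libraries correlated at −0.0756 to 0.311, and 2 of 6 numbers matched best with their own. So few numbers cannot exclude a pairing. With the replicate block, 3 chains were lower past the thresholds, 14 were lower and 1 was higher at an adjusted p below 0.01, and the ratio differences of 0.82 (Col1a2:Col1a1), 0.61 (Col3a1:Col1a1), 0.73 (Col5a1:Col1a1) and −0.35 (Col6a2:Col6a1) had an adjusted p of 0.0562 and that of 0.83 (Col8a2:Col8a1) 0.0938, since sign changes over 6 pairs allow few arrangements. The Col6a3:Col6a1 difference was −0.89 to −0.50 with each library left out.

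The log2 fold change of Col1a2 changed sign: −0.016 (upper quartile), −0.045 (library size only), −0.0042 (no filter), −0.031 (replicate block or a block for number sets), −0.0029 (DESeq2), −0.028 (limma-voom), −0.083 (limma on deposited values), −0.26 (numbers 1 to 3), and −0.13 to 0.081 with each library left out. That of Col4a5 was 0.20 within numbers 1 to 3 and −0.19 to 0.059 with each library left out. Of the other comparisons of single chains, 575 kept direction and side of the threshold, 49 lost the call, 14 of these with glmTreat, and 3 gained it. Chains under 50 normalized counts are limited by depth.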
